A study of Mus musculus with 50 samples.

Results

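The genes described here are 10 members of the mouse tubulin family, chosen by symbol: the alpha tubulin genes Tuba1a, Tuba1b and Tuba4a and the beta tubulin genes Tubb2a, Tubb2b, Tubb3, Tubb4a, Tubb4b, Tubb5 and Tubb6. They were taken from the 55385 genes of the deposited RNA tables, and all 10 passed the filter on low counts. RNA was measured in 28 libraries of spinal motor neurons. Motor neurons at E10.5 (3 libraries) were whole cells sorted for GFP from HB9-GFP embryos on a C57BL/6 background, a line in which a motor neuron promoter drives GFP. At E13.5 (2 libraries), P4 (3), P13 (2), P21 (3), P56 (3) and 2 years (2), nuclei were pulled down from spinal cords of C57BL/6 mice with Chat-Cre and SUN1-GFP-3xMYC, in which the nuclear envelope is tagged in cells that use or used Chat, so that cholinergic interneurons and visceral motor neurons are included. Each tissue library pooled several animals. In culture, nuclei came from motor neurons made from 1 embryonic stem cell line with the same alleles, at the end of differentiation (DIV0, 2 libraries) and after 7 days (DIV7, 2) or 28 days (DIV28, 3) on cortical astrocytes, and after 28 days in 1 µM tetrodotoxin (TTX), which blocks voltage-gated sodium channels (DIV28 TTX, 3). The 22 ATAC-seq libraries, 2 for each of the same 11 groups, were used for the promoters.

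Microtubules are built from dimers of 1 alpha and 1 beta tubulin, and mammals encode several isotypes of each. The isotypes are nearly alike in their folded core and differ most in the acidic tail at the carboxy terminus, where enzymes add or remove glutamate, glycine and tyrosine and where motors and microtubule-associated proteins bind. In the nervous system Tuba1a, Tubb2b, Tubb3 and Tubb5 are known as genes of neuronal birth, migration and axon growth, while Tuba4a and Tubb4a are known as isotypes of the mature brain, Tubb4a also being abundant in oligodendrocytes.

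The tails are shown as the last 60 coding bases before the stop codon, read from the GENCODE transcripts on GRCm38 (the mm10 build of the files), because they encode the part in which the isotypes differ most. They are shown for 7 members. Capitals mark bases that differ between Tubb2a and Tubb2b, and the other ends are in lower case throughout.
Tuba4a, chr1:75215625-75215684, minus strand: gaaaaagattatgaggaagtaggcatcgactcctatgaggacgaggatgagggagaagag
Tubb2a, chr13:34074471-34074530, minus strand: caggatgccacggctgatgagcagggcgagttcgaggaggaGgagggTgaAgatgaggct
Tubb2b, chr13:34127474-34127533, minus strand: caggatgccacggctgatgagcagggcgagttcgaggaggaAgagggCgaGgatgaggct
Tubb3, chr8:123421620-123421679, plus strand: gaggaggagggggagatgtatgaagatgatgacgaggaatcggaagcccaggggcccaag
Tubb4a, chr17:57080693-57080752, minus strand: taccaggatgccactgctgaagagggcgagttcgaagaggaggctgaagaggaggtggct
Tubb4b, chr2:25222311-25222370, minus strand: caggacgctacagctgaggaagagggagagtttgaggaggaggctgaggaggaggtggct
Tubb5, chr17:35834985-35835044, minus strand: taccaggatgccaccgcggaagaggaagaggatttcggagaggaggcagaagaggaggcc
Tuba1a and Tuba1b were identical at 98.3% of 1353 coding bases. Tubb2a and Tubb2b differed at 3 bases of this end, in 3 codons that encode the same amino acids, so that their encoded tails are identical. Over the whole coding sequence they were identical at 96.5% of 1335 bases. Compared from the start codon with no gap, Tuba1a and Tuba4a were identical at 85.3% of 1344 bases, and Tubb4a and Tubb4b at 82.3% of 1332. Such likeness bears on the counts: of all windows of 75 bases in the longest transcript, 68.2% for Tuba1a, 71.9% for Tuba1b, 43.2% for Tubb2a, 32.2% for Tubb2b and 37.8% for Tubb4b also occurred in a transcript of another gene, and the authors' RSEM estimates split reads from them. Tuba4a, Tubb3, Tubb4a, Tubb5 and Tubb6 shared 0 windows. Tuba1a and Tuba1b lie next to each other at chr15:98949837-98953703 and chr15:98931425-98934565, Tubb2a and Tubb2b at chr13:34074274-34078007 and chr13:34126748-34130466, all on the minus strand. Tuba4a, at chr1:75214228-75219865, overlaps Stk16 on the opposite strand, and Tubb4b, at chr2:25222160-25224702, overlaps Fam166a on the opposite strand. Tuba1b also overlaps Gm41396 on the opposite strand, and Tubb3 overlaps Gm20388 on the same strand. Counting was at the default parameters of RSEM, which do not use strand, so reads of genes on opposite strands cannot be told apart.

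Library totals ranged from 2704682 to 21823500 expected counts. One library has a DIV0 title but its deposited data carry the name DIV28 replicate 3. It was used as DIV28 replicate 3, and some of the results that rest on it are also given without it. The median gene shifted by over 0.1 on the log2 scale over the earliest 2 intervals in tissue. With median-of-ratios scaling in place of TMM this shift went from 0.13 to 0.24 at E13.5 against E10.5 and from 0.12 to 0.01 at P4 against E13.5. Levels are given in CPM, counts relative to the library total, scaled by TMM factors over all 28 libraries. Levels of different genes are compared only in TPM, which also divides by transcript length. Summed over 6 motor neuron genes, Chat among them, CPM was 352 to 668 at E10.5, 273 to 502 at E13.5, 624 to 737 at P21 and 1022 to 1783 at DIV28. Other cells were also measured: 5 endothelial genes summed to 2168 to 4185 CPM at E13.5, 963 to 1301 at P4 and 2.03 to 4.48 at P56. A set of 6 oligodendrocyte genes summed to 351 to 458 at P4, 1992 to 2010.1 at P13, 1101 to 1474 at P21 and 272 to 289 at 2 years. A set of 4 progenitor and division genes summed to 680.0 to 1322 at E13.5 and 2.83 to 8.76 at P21. RNAs of cytosolic ribosomal proteins, which like tubulin RNAs are mostly outside the nucleus, summed to 27282 to 33024 CPM at E10.5 and 29604 to 35714 at E13.5. Their sums were 4127 to 5357 at P4, 9381 to 9919 at P13, 1859.7 to 2962 at P21, 2513 to 2695 at P56 and 3018 to 3828 at 2 years. The part of these in the tubulin changes was not tested. In such bulk libraries fewer cells of a type and less RNA per cell cannot be told apart.

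The question in tissue was when the tubulin RNAs change as motor neurons are born, mature and age. The summed level of the 10 genes was 10841 ± 3643 CPM (SD, n = 3) at E10.5, 4476 ± 454 (n = 2) at E13.5, 918 ± 61.5 (n = 3) at P4, 1159 ± 191 (n = 2) at P13, 444 ± 30.5 (n = 3) at P21, 341 ± 40.0 (n = 3) at P56 and 479 ± 25.2 (n = 2) at 2 years. A gene was called where edgeR's quasi-likelihood test gave p below 0.001, unadjusted, together with 2-fold or more between the groups. Adjusted p-values in the text are from that test, Benjamini-Hochberg adjusted over all genes, and log2 fold changes are given ± their standard error. From E13.5 to P21, 8 of 10 members fell and 1, Tuba4a, rose, beside 26.3% and 29.8% of all tested genes called lower and higher. From E10.5 to E13.5, 4 fell and 1 rose (all genes 19.4% and 24.6%), a step at which whole cells give way to nuclei, so that isolation and age cannot be told apart. Tuba1a, Tuba1b, Tubb3 and Tubb5 were those that fell and Tubb6 the one that rose. Without E13.5 replicate 2 this count was 3. From E13.5 to P4, 7 fell and 1 rose (all genes 19% and 23.8%). From P4 to P13, 1 fell and 2 rose (all genes 7.54% and 5.8%). From P13 to P21, 7 fell and 0 rose (all genes 5.8% and 1.5%), and in all 10 members every P21 library lay below every P13 library, as did those of 30.4% of all genes. Of these, the call for Tubb2a was lost without any 1 library and with median-of-ratios scaling. From P21 to P56 no member was called by edgeR or by DESeq2 (all genes 0.126% lower and 0.0466% higher), with 2 members at an unadjusted p under 0.05 in each tool, both lower. From P56 to 2 years, 2 rose and 0 fell (all genes 0.499% higher and 0.186% lower), a count that was 0 without P56 replicate 1 or without 2yr replicate 2.

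**Figure D1:**
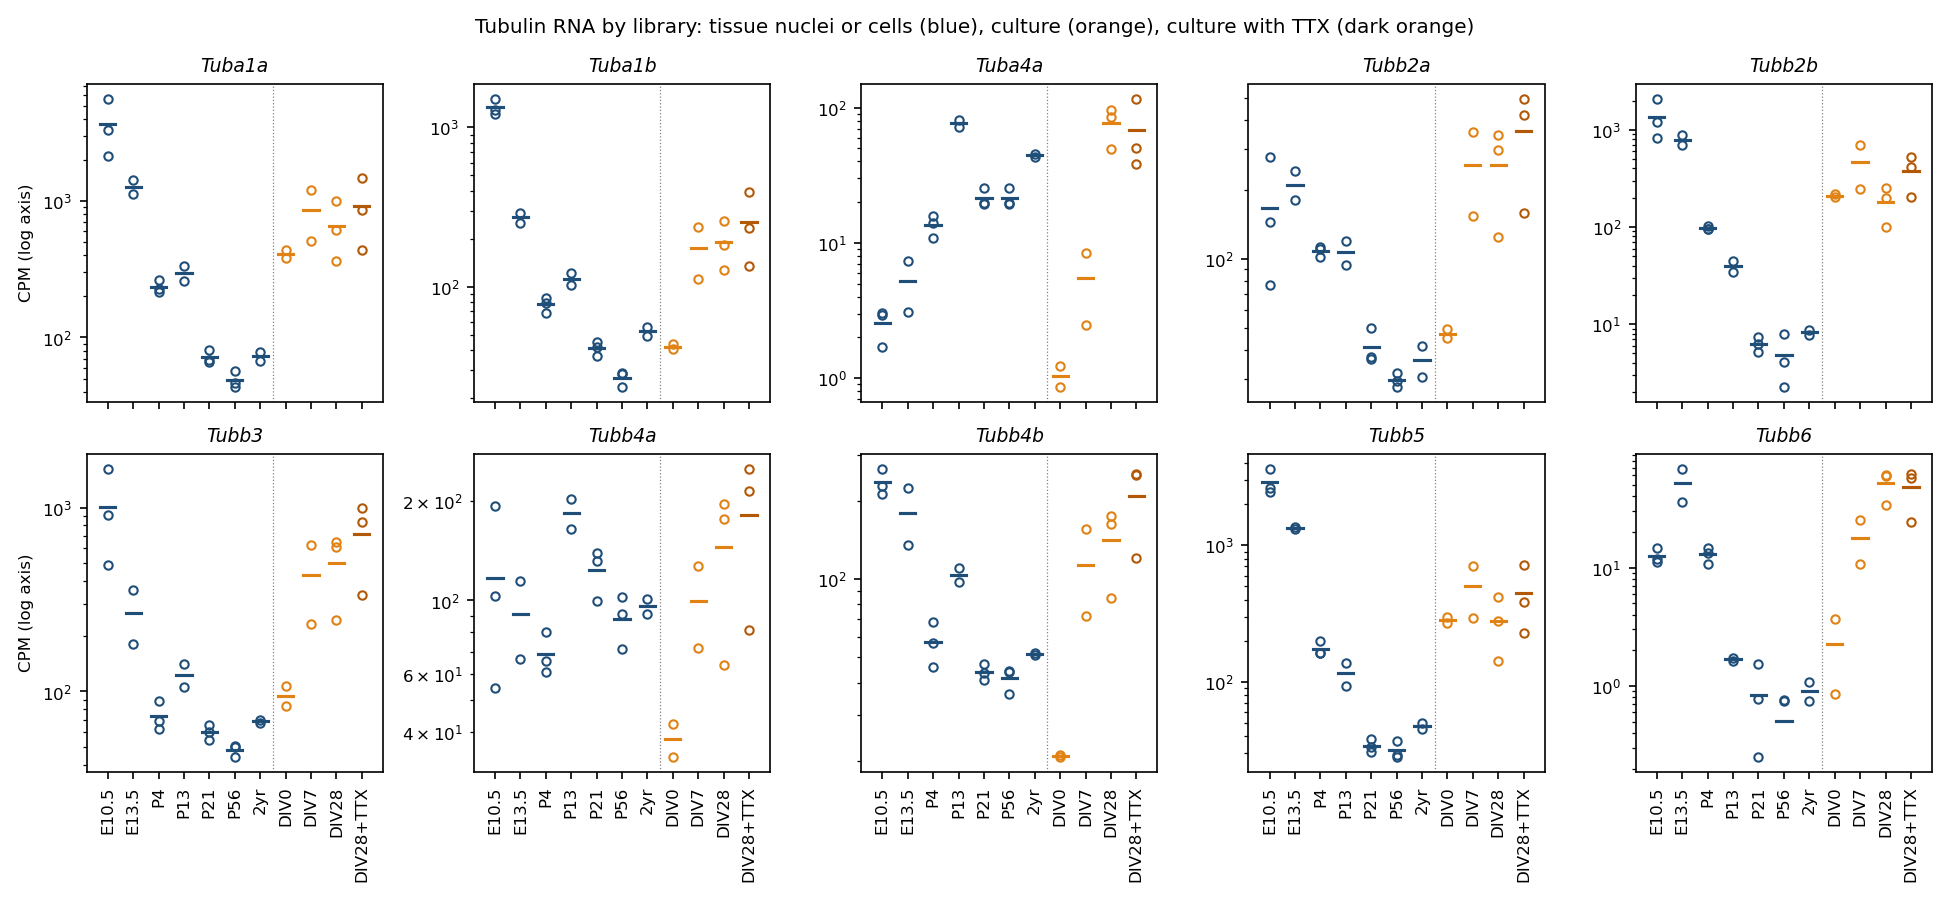
Each panel plots 1 tubulin gene, with CPM on a log axis against the 11 groups, points for libraries and bars for group means. Tissue is in blue, culture in orange and TTX in dark orange, and 1 P56 library without a Tubb6 count has no point. Tubb2b and Tubb5 descend from E10.5 to P56, while Tuba4a and Tubb4a have their highest tissue level at P13.

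Among the alpha tubulins, Tuba1a, the main alpha isotype of young neurons, had 3329, 2124 and 5610.3 CPM at E10.5, 1422 and 1126 at E13.5 and 262, 217 and 228 at P4. Later values were 258 and 332 at P13, 68.6, 66.1 and 81.1 at P21, 43.1, 46.1 and 56.4 at P56 and 67.0 and 78.3 at 2 years. Of neighbouring ages, only the libraries of P4 and P13 overlapped, and those of P56 were the lowest. Between E13.5 and P21 it fell 16.2-fold (log2 -4.02 ± 0.31, adjusted p = 2.42e-09), in a step before P4 (log2 -2.29 ± 0.29, adjusted p = 2.28e-06) and another after P13 (log2 -2.09 ± 0.29, adjusted p = 9.78e-05). Tuba1b, an isotype that dividing cells also use, had 1292, 1507 and 1221 CPM at E10.5, 252 and 291 at E13.5 and 85.4, 67.9 and 78.4 at P4. Later values were 102 and 122 at P13, 36.5, 41.5 and 45.0 at P21, 23.4, 28.1 and 28.8 at P56 and 48.7 and 56.2 at 2 years. It fell 6.05-fold from E13.5 to P21 (log2 -2.60 ± 0.16, adjusted p = 1.57e-10) and was called 2.04-fold higher at 2 years than at P56 (log2 1.03 ± 0.16, adjusted p = 0.0091), the call at 2 years being lost under 7 of its alternatives. With the counts of Tuba1a, Tuba1b, Tuba1c and the readthrough gene Gm49450 summed, the change from E13.5 to P21 was log2 -3.60 ± 0.25, adjusted p = 6.22e-10, and that from P56 to 2 years was not called (log2 0.68 ± 0.24, adjusted p = 0.242).

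Tuba4a, the only alpha tubulin of the set whose gene does not encode the final tyrosine, ran the other way. It had 3.01, 1.69 and 2.93 CPM at E10.5, 3.11 and 7.37 at E13.5 and 15.9, 10.8 and 14.0 at P4. Later values were 72.0 and 81.1 at P13, 19.8, 19.2 and 25.5 at P21, 19.8, 19.4 and 25.4 at P56 and 45.7 and 43.4 at 2 years. Every P4 library lay above every E13.5 library, and the P13 libraries were the highest in tissue. The rise was 2.70-fold from E13.5 to P4 (log2 1.44 ± 0.29, adjusted p = 0.000336) and 5.79-fold from P4 to P13 (log2 2.53 ± 0.25, adjusted p = 1.87e-06). A 3.69-fold fall to P21 (log2 -1.88 ± 0.25, adjusted p = 5.48e-05) and a 2.14-fold rise at 2 years (log2 1.10 ± 0.25, adjusted p = 0.0598) followed. The call from E13.5 to P4 was lost without E13.5 replicate 1 and with only the compared groups fitted. That at 2 years was lost without P56 replicate 1 or 2, without either 2yr library and with an adjusted p limit of 0.05. The P13 maximum coincided with the highest summed oligodendrocyte markers, which were at 384 to 583 CPM at P56 and 272 to 289 at 2 years. The cytosolic ribosomal protein RNAs summed to 9381 to 9919 CPM at P13, 2513 to 2695 at P56 and 3018 to 3828 at 2 years. The part of either in the Tuba4a level was not tested.

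Among the beta tubulins, Tubb3, the isotype used as a marker of neurons, had 914, 489 and 1624 CPM at E10.5, 357 and 180.4 at E13.5 and 68.9, 62.7 and 88.9 at P4. Later values were 106 and 141 at P13, 65.5, 60.02 and 54.3 at P21, 43.9, 50.6 and 49.8 at P56 and 67.3 and 70.3 at 2 years. The libraries at E10.5 and E13.5 spread widely but stood above all later tissue libraries. It fell from E10.5 to E13.5 (log2 -2.02 ± 0.38, adjusted p = 0.000141), a call lost without E13.5 replicate 2. It fell 4.09-fold between E13.5 and P21 (log2 -2.03 ± 0.36, adjusted p = 5.65e-05), a call lost without E13.5 replicate 1, and its fall from E13.5 to P4 (log2 -1.72 ± 0.36, adjusted p = 0.000358) was lost without that library or without P4 replicate 2. From P13 to P21 it was 2.13-fold lower without passing the limit (log2 -1.09 ± 0.36, adjusted p = 0.0374). With the counts of Tubb3 and the overlapping Gm20388 summed, the change from E13.5 to P21 was log2 -2.03 ± 0.35, adjusted p = 4.88e-05.

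Tubb2b, which supports neuronal migration, showed the greatest fall of the 10 genes between E13.5 and P21. It had 1195, 815 and 2078 CPM at E10.5, 879 and 690.0 at E13.5 and 101, 94.4 and 95.7 at P4. Later values were 34.4 and 44.2 at P13, 5.14, 7.34 and 6.25 at P21, 4.06, 2.24 and 7.98 at P56 and 8.79 and 7.73 at 2 years. From E13.5 to P21 it fell 114-fold (log2 -6.84 ± 0.40, adjusted p = 9.58e-11), with calls for a 7.29-fold step before P4 and a 6.49-fold step after P13. Its neighbour Tubb2a, nearly identical in coding sequence, had 145, 76.7 and 278 CPM at E10.5, 240.0 and 181 at E13.5 and 102, 109.9 and 113 at P4. Later values were 94.2 and 120.1 at P13, 36.5, 50.1 and 37.5 at P21, 31.7, 27.6 and 29.5 at P56 and 30.6 and 41.9 at 2 years. Tubb2a fell 4.64-fold from E13.5 to P21 (log2 -2.21 ± 0.35, adjusted p = 1.92e-05), and its change from E13.5 to P4 was not called (log2 -0.81 ± 0.34, adjusted p = 0.0441). The order of the pair therefore turned over within the libraries. The TPM ratio of Tubb2a to Tubb2b was 0.170, 0.131 and 0.187 at E10.5, 0.389 and 0.373 at E13.5, 1.44, 1.64 and 1.66 at P4, 3.90 and 3.70 at P13 and 9.83, 9.65 and 8.45 at P21. With both genes summed before the fit, the fall from E13.5 to P21 was log2 -4.25 ± 0.31, adjusted p = 1.6e-09.

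Tubb5, a beta isotype of many growing cells, had 2621, 2464 and 3636 CPM at E10.5, 1359 and 1319 at E13.5, 198, 162 and 162 at P4 and 92.6 and 138 at P13. It had 32.9, 37.7 and 30.3 at P21, 27.9, 28.9 and 37.0 at P56 and 49.7 and 44.7 at 2 years. It fell 36.4-fold from E13.5 to P21 (log2 -5.18 ± 0.23, adjusted p = 4.62e-12). Tubb4b, expressed in most tissues and in cilia, had 213, 265 and 228 CPM at E10.5, 135 and 224 at E13.5, 57.0, 45.9 and 68.7 at P4, 97.6 and 110.1 at P13 and 43.7, 47.4 and 41.0 at P21. It fell 3.73-fold from E13.5 to P21 (log2 -1.90 ± 0.19, adjusted p = 8.64e-08). Its levels at P56 (36.0, 44.1 and 44.5 CPM) and 2 years (51.2 and 51.9 CPM) were near those at P21.

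Tubb4a was the member without a call from E13.5 to P21. It had 103, 54.4 and 194 CPM at E10.5, 115 and 66.5 at E13.5 and 60.8, 65.4 and 80.4 at P4. Later values were 165 and 203 at P13, 99.7, 132 and 139.6 at P21, 71.1, 90.9 and 102 at P56 and 91.1 and 101 at 2 years. Only the step from P4 to P13 was called, 2.74-fold higher (log2 1.46 ± 0.36, adjusted p = 0.00493), and that call was lost without any 1 of the 5 libraries and with median-of-ratios scaling. From E13.5 to P21 the change was log2 0.59 ± 0.37, adjusted p = 0.157. The summed oligodendrocyte markers were at 351 to 458 CPM at P4 and 1992 to 2010.1 at P13, and their part in Tubb4a was not tested. Tubb6, expressed widely outside the nervous system, had 11.04, 14.6 and 11.9 CPM at E10.5, 35.7 and 68.3 at E13.5, 14.7, 13.4 and 10.8 at P4 and 1.62 and 1.73 at P13, and 0 to 1.52 in the 8 libraries from P21 on. It rose 3.91-fold from E10.5 to E13.5 (log2 1.97 ± 0.30, adjusted p = 1.83e-05) and fell from E13.5 to P21 (log2 -5.78 ± 0.44, adjusted p = 2.29e-09), where the P21 libraries held 3, 6 and 1 counts. In the E13.5 libraries the higher Tubb6 value belonged to replicate 2, which also had the higher endothelial sum (2168 to 4185 CPM over both, and 6.43 to 12.7 at P21), and the part of blood vessel RNA was not tested.

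Shares within a library do not depend on scaling between libraries. Of the summed TPM of the 3 alpha genes, Tuba4a held 0.0518% ± 0.0177 (SD, n = 3) at E10.5, 0.346% ± 0.232 (n = 2) at E13.5, 3.92% ± 0.704 (n = 3) at P4, 16.1% ± 0.796 (n = 2) at P13, 16.7% ± 3.07 (n = 3) at P21, 25.1% ± 4.59 (n = 3) at P56 and 28.3% ± 5.60 (n = 2) at 2 years. Tuba1a went from 80.9% ± 4.08 at E13.5 to 50.5% ± 3.88 at P21 and 37.8% ± 2.74 at 2 years, whereas Tuba1b held 18.7% ± 3.84, 32.8% ± 2.36 and 33.9% ± 2.86. The CPM of Tuba4a thus fell after P13 while its share of the alpha RNA did not, as Tuba1a and Tuba1b fell over the same step. Of the 7 beta genes, Tubb5 held 38.3% ± 2.63 at E13.5 and 10.3% ± 2.85 at P21, and Tubb2b 26.5% ± 1.95 and 1.71% ± 0.140. Tubb4a held 2.96% ± 0.842 at E13.5, 9.93% ± 1.09 at P4, 22.7% ± 0.520 at P13 and 33.2% ± 5.15 at P21, where it was the largest beta share. Tubb4b held 9.05% ± 3.98 at E13.5 and 18.9% ± 1.45 at P21, and Tubb3 10.7% ± 4.01 and 19.7% ± 3.001. The shares are descriptions without a test.

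**Figure D2:**
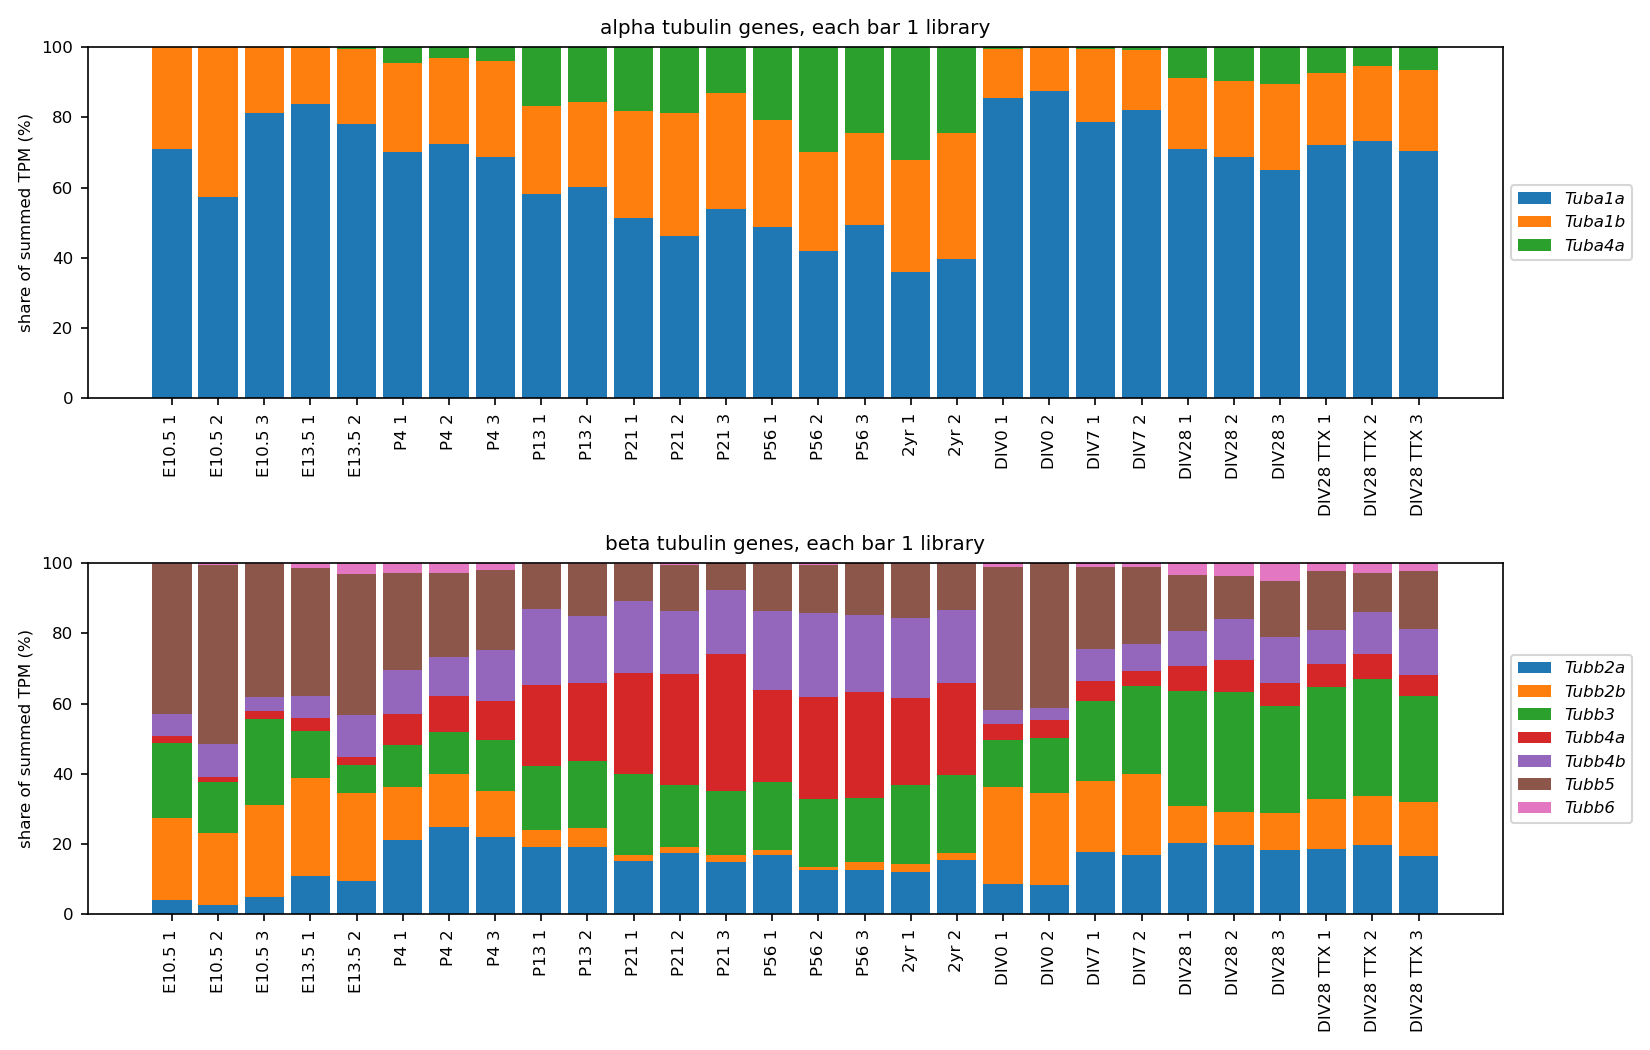
Stacked bars give, for each of the 28 RNA libraries, the percent of summed TPM held by each alpha (top) and beta (bottom) tubulin gene. Tuba4a and Tubb4a widen with age in tissue, while at DIV28 the widest beta band is Tubb3 and the Tubb4a band stays under 10%.

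In culture the question was which of these changes stem-cell-derived motor neurons make over 28 days. From DIV0 to DIV28, 4 of 10 rose and 0 fell (all tested genes 11.5% higher and 7.45% lower). From DIV0 to DIV7, 1 rose (all genes 8.36% higher and 2.81% lower). From DIV7 to DIV28, 1 rose (all genes 3.62% higher and 4.09% lower). Without DIV28 replicate 3, the library with a DIV0 title, 7 members rose from DIV0 to DIV28, beside 1454 of 12992 genes. With that library placed at DIV0 the count was 0, with 9 of 12348 genes called higher and 5 lower. Without DIV0 replicate 1 or without DIV0 replicate 2 it was 2. From DIV0 to DIV7 the count was 0 without DIV0 replicate 1, DIV0 replicate 2 or DIV7 replicate 2 and 2 without DIV7 replicate 1, and from DIV7 to DIV28 it was 0 without DIV7 replicate 1. Replicates spread widely and together, DIV28 replicate 3 being the lowest of the DIV28 libraries for all 10 members. From DIV0 to DIV28 the sums of other genes moved too: mitochondrially encoded mRNAs from 67.7 to 71.7 CPM at DIV0 to 409.6 to 614 at DIV28, astrocyte genes from 12.6 to 18.3 to 79.6 to 97.2, endothelial genes from 1.72 to 2.57 to 21.3 to 44.1 and progenitor and division genes from 335 to 411 to 0.672 to 4.72. Their part in the tubulin changes was not tested.

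Tuba4a had 1.23 and 0.857 CPM at DIV0, 2.49 and 8.46 at DIV7 and 96.5, 84.8 and 49.1 at DIV28, with no overlap between the 3 times. It rose 71.2-fold from DIV0 to DIV28 (log2 6.15 ± 0.76, adjusted p = 8.95e-05), and without DIV28 replicate 3 the change was log2 6.39 ± 0.74, adjusted p = 8.61e-05. The fold rests on 5 and 3 counts in the DIV0 libraries. Its rise from DIV7 to DIV28 was 13.4-fold (log2 3.75 ± 0.61, adjusted p = 0.00248), a call lost without DIV7 replicate 1. The oligodendrocyte markers summed to 6.15 to 9.35 CPM at DIV28, with Mag, Mobp, Mog and Sox10 at 0 in every DIV28 library. Tuba1b had 43.6 and 40.3 CPM at DIV0 and 259, 182 and 127 at DIV28 and rose 4.50-fold (log2 2.17 ± 0.49, adjusted p = 0.00458), a call lost without DIV28 replicate 1 or 2, without either DIV0 library, or with the Tuba1 copies summed. Tuba1a, with 384 and 439 CPM at DIV0, 512 and 1212 at DIV7 and 1002, 613 and 365 at DIV28, overlapped between the times and was not called (log2 0.68 ± 0.54, adjusted p = 0.345).

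Of the beta genes, Tubb4b rose from 20.7 and 21.1 CPM at DIV0 to 72.3 and 155 at DIV7 and 163, 175 and 84.7 at DIV28, and Tubb6 from 3.69 and 0.857 at DIV0 (15 and 3 counts) to 10.7 and 25.1 at DIV7 and 60.9, 59.6 and 33.9 at DIV28. From DIV0 to DIV28 these were 6.71-fold (log2 2.75 ± 0.48, adjusted p = 0.000882) and 21.8-fold (log2 4.45 ± 0.67, adjusted p = 0.000339), and the call for Tubb4b was lost without either DIV0 library. Tubb4b was also the member called from DIV0 to DIV7 (log2 2.44 ± 0.49, adjusted p = 0.00426). Tubb3 had 83.2 and 107 CPM at DIV0, 234 and 623 at DIV7 and 647, 610.0 and 246 at DIV28, with both later groups above DIV0 in every library but under the call limit at DIV28 (log2 2.40 ± 0.59, adjusted p = 0.0074). Tubb2a (45.0 and 49.4 CPM at DIV0 and 344, 298 and 124 at DIV28, log2 2.43 ± 0.58, adjusted p = 0.00623) and Tubb4a (33.5 and 42.3 CPM at DIV0 and 176, 197 and 63.6 at DIV28, log2 1.94 ± 0.56, adjusted p = 0.0169) were likewise higher without a call. All 3 of these were called without DIV28 replicate 3. Tubb2b, with 204 and 217 CPM at DIV0, 245 and 691 at DIV7 and 250.5, 197 and 100.2 at DIV28 (log2 -0.21 ± 0.50, adjusted p = 0.766), and Tubb5, with 271 and 299.8 at DIV0, 292 and 709.6 at DIV7 and 416, 279 and 141 at DIV28 (log2 -0.04 ± 0.53, adjusted p = 0.958), overlapped between DIV0 and DIV28.

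Shares moved as well. The alpha share of Tuba4a was 0.378% ± 0.103 (SD, n = 2) at DIV0, 0.741% ± 0.0812 (n = 2) at DIV7 and 9.69% ± 0.949 (n = 3) at DIV28. The beta share of Tubb2b was 27.0% ± 1.02 at DIV0, 21.7% ± 2.25 at DIV7 and 10.1% ± 0.718 at DIV28, that of Tubb5 40.9% ± 0.208, 22.6% ± 0.843 and 14.7% ± 2.18, and that of Tubb3 14.5% ± 1.52, 23.9% ± 1.53 and 32.4% ± 1.79. The share of Tubb4a was 4.73% ± 0.395 at DIV0 and 7.62% ± 1.302 at DIV28, against 33.2% ± 5.15 at P21 in tissue. The TPM ratio of Tubb4a to Tubb3 was 0.224, 0.265 and 0.213 in the DIV28 libraries and 1.25, 1.81 and 2.11 in the P21 libraries. Between these groups the oligodendrocyte genes went from 1101 to 1474 CPM at P21 to 6.15 to 9.35 at DIV28. Their part in the Tubb4a share and ratio was not tested. A per-library share is less touched by the spread at DIV28, since DIV28 replicate 3 had a Tuba4a share of 10.6% beside 8.70% and 9.79% in the other DIV28 libraries.

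Silencing with TTX was compared with cultures grown in parallel, as 3 pairs. Tubb2b had 250.5, 197 and 100.2 CPM in DIV28 replicates 1, 2 and 3 and 526, 412 and 203 in the TTX libraries paired with them, so each TTX library was 2.10, 2.09 and 2.03 times its partner. The ranges of the unpaired groups overlapped. Without the pair in the fit no member was called in either direction by edgeR or DESeq2 (all genes 0.279% higher and 0.403% lower), and 1 member, Tubb2b, had an unadjusted p under 0.05 in each tool (log2 1.06 ± 0.45, adjusted p = 0.56). With the pair as a block, Tubb2b was called (log2 1.07 ± 0.11, adjusted p = 6.51e-05), and without the pair that holds the library with a DIV0 title it was called as well (log2 1.07 ± 0.17, adjusted p = 0.000228). Of the 10764 genes tested in these 6 libraries, 281 were called with the block and 65 without it.

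In 8 of the 10 members the TTX library was the higher of its pair in all 3 pairs, beside 23.1% of all genes. In the paired fit 6 were higher with an adjusted p under 0.05, beside 5.66% of all genes, and only Tubb2b reached 2-fold. Without the pair that holds the library with a DIV0 title, only Tubb2b and Tubb5 stayed under 0.05 and the other 4 had adjusted p-values from 0.0503 to 0.0756. The ratios were 1.73, 1.38 and 1.63 for Tubb5 (log2 0.67 ± 0.11, adjusted p = 0.00221), 1.55, 1.43 and 1.42 for Tubb4b (log2 0.57 ± 0.11, adjusted p = 0.00474), 1.44, 1.41 and 1.28 for Tubb2a (log2 0.48 ± 0.11, adjusted p = 0.0135), 1.55, 1.36 and 1.37 for Tubb3 (log2 0.53 ± 0.11, adjusted p = 0.00693) and 1.48, 1.41 and 1.20 for Tuba1a (log2 0.46 ± 0.11, adjusted p = 0.0162). Tuba4a had 116, 50.4 and 38.2 CPM with TTX and ratios of 1.20, 0.594 and 0.778, and Tubb6 had ratios of 1.01, 0.967 and 0.721, and neither pointed one way in all pairs. Tubb2b was the one beta member whose share was greater with TTX in every pair, at 14.4% ± 0.773 against 10.1% ± 0.718 (SD, n = 3 each), while the alpha share of Tuba4a was smaller in every pair, at 6.46% ± 0.928 against 9.69% ± 0.949. The cytosolic ribosomal protein RNAs summed to 3002 to 5828 CPM without and 3923 to 6913 with TTX, and the mitochondrially encoded mRNAs to 409.6 to 614 and 733 to 742. Mural and fibroblast genes summed to 0.279 to 40.1 CPM without and 0.475 to 109 with TTX, and progenitor and division genes to 0.672 to 4.72 and 3.67 to 17.2. These 4 sums were higher with TTX in all 3 pairs. Endothelial genes (21.3 to 44.1 and 8.07 to 24.7 CPM) and 5 genes of other spinal neurons (72.1 to 120.4 and 47.8 to 95.7 CPM) were lower in all 3. Their part in the tubulin values was not tested.

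**Figure D3:**
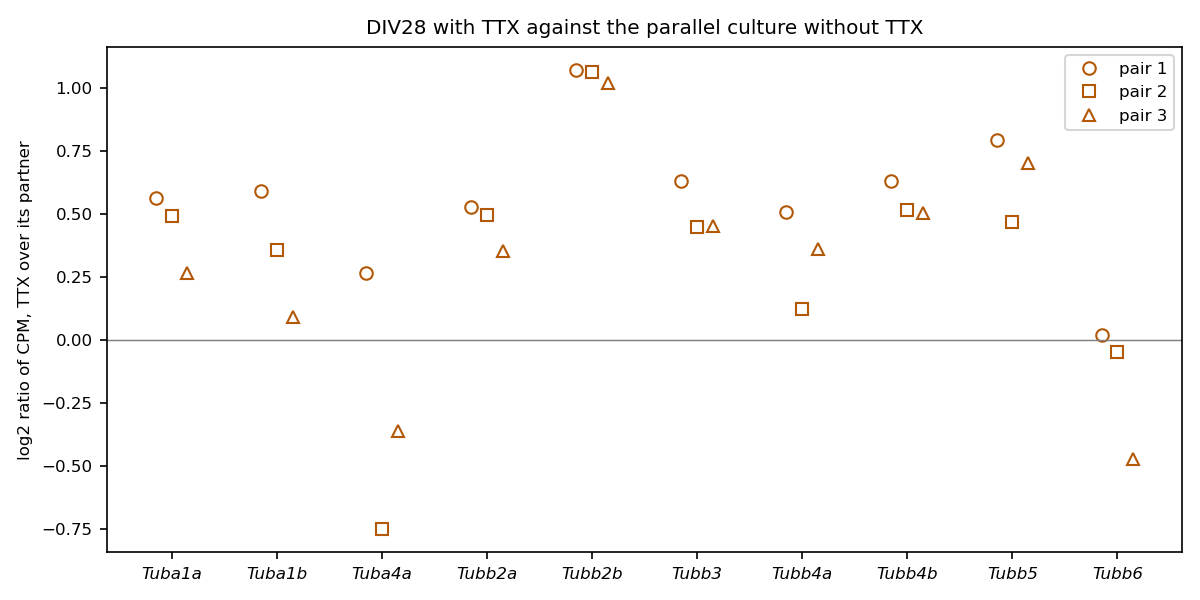
The vertical axis gives the log2 ratio of CPM in each TTX library over its parallel DIV28 culture, with 1 symbol for each of the 3 pairs and the 10 tubulin genes along the horizontal axis. The 3 Tubb2b pairs lie close together near 1, and Tuba4a and Tubb6 straddle 0.

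The systems were then set side by side. At the early end, all 10 members were lower at DIV0 than at E13.5 in every library, as were 41.8% of all genes, and 8 of 10 fell by the call limits (all genes 24.3% lower and 15.1% higher), the greatest falls being those of Tubb6 (log2 -4.55 ± 0.55, adjusted p = 4.43e-07) and Tubb4b (log2 -3.20 ± 0.35, adjusted p = 1.18e-07). Tubb3 (log2 -1.59 ± 0.48, adjusted p = 0.00666) and Tubb4a (log2 -1.35 ± 0.48, adjusted p = 0.0177) were not called. The count was 4 without DIV0 replicate 1 or without DIV0 replicate 2, 5 without E13.5 replicate 1 and 5 with the library of the DIV0 title placed there. Between the same groups the cytosolic ribosomal protein RNAs summed to 29604 to 35714 CPM at E13.5 and 5669 to 5916 at DIV0, the mitochondrially encoded mRNAs to 868 to 956 and 67.7 to 71.7, and the endothelial genes to 2168 to 4185 and 1.72 to 2.57, and their part was not tested. At the late end, 9 of 10 were higher at DIV28 than at P21 and 0 lower (all genes 13.3% and 13.1%), a count of 9 also without DIV28 replicate 3. Tubb2b was 28.6-fold higher (log2 4.84 ± 0.46, adjusted p = 2.03e-08), Tuba1a 9.02-fold (log2 3.17 ± 0.36, adjusted p = 2.95e-07), Tubb3 8.23-fold (log2 3.04 ± 0.41, adjusted p = 3.3e-06) and Tubb5 8.14-fold (log2 3.02 ± 0.33, adjusted p = 1.88e-07) and Tubb6, with 3, 6 and 1 counts at P21, was higher by log2 5.87 ± 0.52, adjusted p = 8.74e-09. Tubb4a, the mature beta isotype, was the exception, with 176, 197 and 63.6 CPM at DIV28 and 99.7, 132 and 139.6 at P21 (log2 0.21 ± 0.37, adjusted p = 0.658). The oligodendrocyte genes summed to 1101 to 1474 CPM at P21 and 6.15 to 9.35 at DIV28, and their part in Tubb4a was not tested. Tuba4a, the mature alpha isotype, was 3.504-fold higher at DIV28 (log2 1.81 ± 0.30, adjusted p = 3.11e-05). Its alpha share was smaller there, at 8.70%, 9.79% and 10.6% in the DIV28 libraries and 18.2%, 18.7% and 13.1% in the P21 libraries. The size of the folds between the systems depended on the unit. In mean TPM, Tubb2b had 1.78 at P21 and 27.5 at DIV28, Tuba1a 25.4 and 122 and Tuba4a 8.42 and 16.5, smaller ratios than the folds above. Tubb4a had a mean TPM of 34.2 at P21 and 21.7 at DIV28.

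The difference between the spans was tested directly in a joint fit of tissue and culture, as the change from DIV0 to DIV28 minus the change from E13.5 to P21. It was positive and called for 9 of 10 members and negative for 0 (all genes 24.2% called higher and 17.5% lower). For Tubb2b the change was log2 -6.84 in the tissue fit and -0.21 in the culture fit, and the difference in the joint fit was log2 6.83 ± 0.66, adjusted p = 1.59e-08. For Tuba4a, which rose in both systems, the difference was log2 4.26 ± 0.66, adjusted p = 8.93e-06, a call lost with the library of the DIV0 title placed at DIV0. Tubb4a was not called (log2 1.56 ± 0.60, adjusted p = 0.0285). Tissue and culture libraries share no sample, but system, age and start of the span change together and cannot be told apart.

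**Figure D4:**
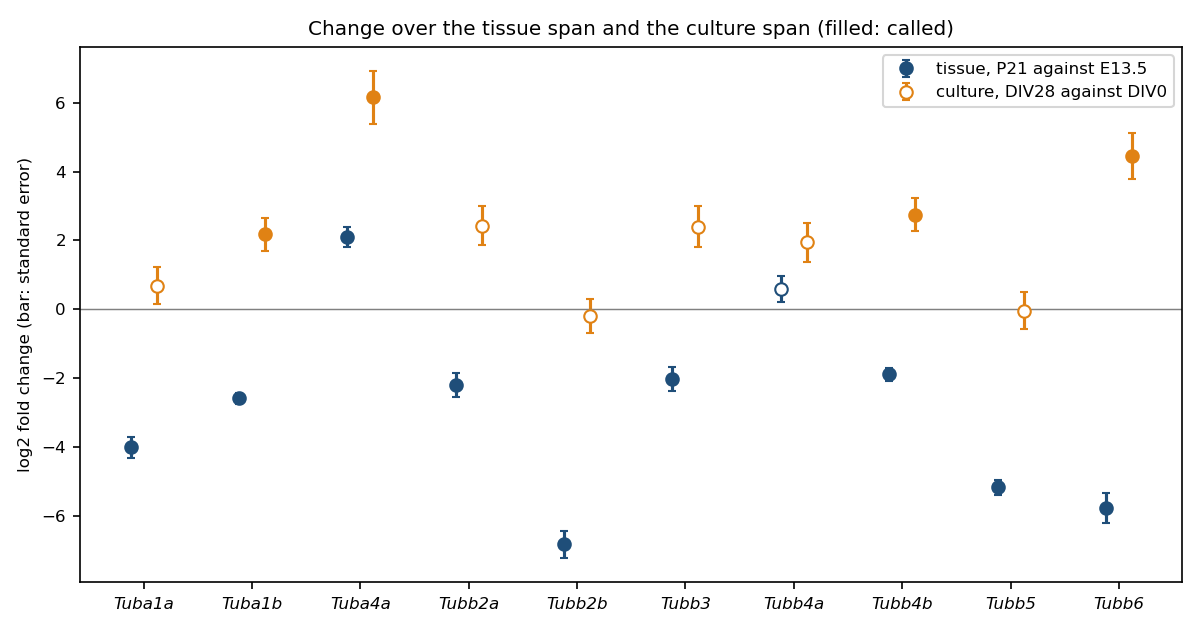
Points give the log2 fold change of each tubulin gene from E13.5 to P21 in tissue (blue) and from DIV0 to DIV28 in culture (orange), with bars of 1 standard error and filled points for called changes. Tuba4a is above 0 in both systems, and 8 members are called below 0 in tissue but none in culture.

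The ATAC-seq libraries were used to describe the promoters of these genes. All 10 members had an ATAC peak with its summit within 1000 bp of an annotated start in each of the 22 libraries. The share of all genes with such a peak was not counted, so this does not set the members apart. The percentile of a promoter peak is its rank by fold enrichment among the peaks of its library. The lists held 93736 to 273452 peaks, so a rank in a longer list is set against more low peaks, and ranks of different libraries do not measure a change. Tubb2b had percentiles of 86.0 and 77.6 in the E13.5 libraries and 84.3 and 82.5 in the P21 libraries, and 82.0 and 84.7 at 2 years. Tuba4a had 82.8 and 74.5 at E10.5, 93.9 and 93.4 at E13.5, 93.6 and 89.8 at P21, 89.7 and 89.0 at DIV0 and 73.1 and 72.8 at DIV28. Tubb5 had the lowest median percentile, 57.9, with 33.5 and 52.7 at E10.5 and 79.6 and 85.7 at 2 years. Tubb6 had 91.6 and 90.8 at E10.5, 41.1 and 66.4 at P21 and 80.5 and 86.1 at DIV28. With 2 libraries a group and an unknown number of reads behind the peaks, these ranks are descriptions.

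**Figure D5:**
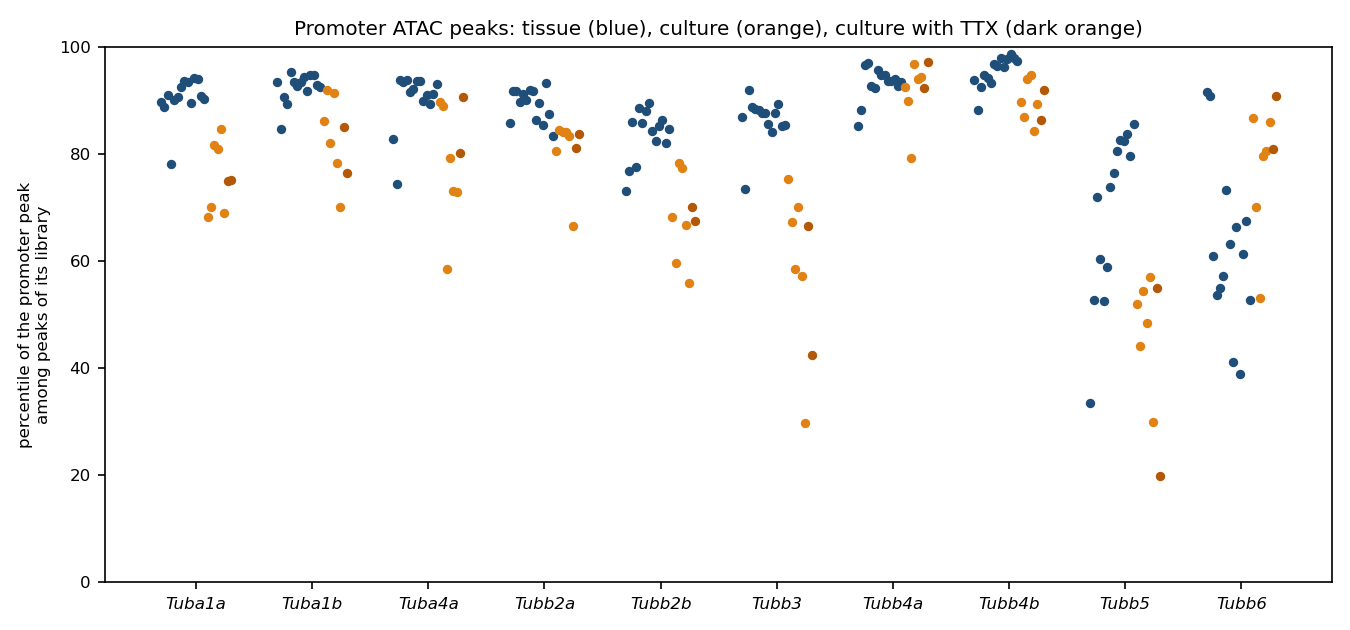
Each point is the promoter peak of 1 gene in 1 ATAC library, as its percentile by fold enrichment among the peaks of that library, with libraries ordered from E10.5 to DIV28 TTX within each gene. Tissue is in blue and culture in orange. Tubb4b and Tubb4a have the highest medians, 94.1 and 93.6, and Tubb5 the lowest. The peak lists differ in length, so points of different libraries are not on 1 scale.

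The promoters of Tubb2a and Tubb4b are shown as the 250 bases before the RefSeq start on GRCm38.p6, since no annotated exon lies in them. Promoter sequences were matched for 8 of the 10 members, and Tubb2b and Tubb6 were not matched. Capitals mark matches, on either strand, to the box CCAAT, to GGGCGG (known as the GC box), to TATAAA (known as the TATA box) and to the cyclic AMP response element TGACGTCA.
Tubb2a, chr13:34078009-34078258, minus strand: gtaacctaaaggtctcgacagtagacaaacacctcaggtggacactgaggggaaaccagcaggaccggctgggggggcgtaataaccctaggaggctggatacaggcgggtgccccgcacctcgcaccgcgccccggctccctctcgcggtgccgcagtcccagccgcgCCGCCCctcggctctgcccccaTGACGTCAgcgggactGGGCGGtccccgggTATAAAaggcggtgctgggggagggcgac
Tubb4b, chr2:25224703-25224952, minus strand: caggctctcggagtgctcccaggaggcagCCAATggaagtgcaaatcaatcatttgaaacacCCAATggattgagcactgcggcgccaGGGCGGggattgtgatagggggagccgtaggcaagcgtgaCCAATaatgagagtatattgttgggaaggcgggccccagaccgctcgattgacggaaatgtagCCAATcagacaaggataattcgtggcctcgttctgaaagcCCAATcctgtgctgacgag
In these windows Tubb2a held 1 TATA box, 1 cyclic AMP response element and 2 GC boxes, and Tubb4b held 5 CCAAT boxes and 1 GC box. Of all 32851 promoter windows of the same length, 33.8% held a CCAAT box, 32.7% a GC box, 12.4% a TATA box and 1.55% a cyclic AMP response element so spelled. A match describes letters and not binding.

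Genes that make, modify and use tubulin were counted by lists, beside 29.8% of all genes called higher and 26.3% lower in tissue from E13.5 to P21, and 11.5% and 7.45% in culture from DIV0 to DIV28. The tubulin folding list held folding cofactors and prefoldin subunits, which bring tubulin to its folded dimer, together with Arl2 and Ttc5. From E13.5 to P21, 1 rose and 8 fell of 13 tested in it, with Tbce (log2 1.68 ± 0.14, adjusted p = 6.97e-09) higher and Pfdn5 (log2 -4.08 ± 0.21, adjusted p = 2.61e-11) and Tbca (log2 -3.48 ± 0.27, adjusted p = 2.66e-09) lower. The median log2 change of that list was -1.41, beside -2.40 for the 10 members and 0.15 for all genes. From DIV0 to DIV28 in that list, 0 rose and 0 fell of 13 tested, with a median of 0.46 beside 2.28 for the members and 0.06 for all genes. Of the microtubule-associated proteins, 7 rose and 3 fell of 17 tested from E13.5 to P21 and 5 rose and 1 fell of 17 tested from DIV0 to DIV28, with medians of 0.34 in tissue and 0.85 in culture. Map2 (log2 2.10 ± 0.28, adjusted p = 2.43e-06) and Map1a (log2 1.85 ± 0.24, adjusted p = 1.94e-06), which bundle microtubules in dendrites and axons, were among those that rose in tissue, and Stmn1 (log2 -5.58 ± 0.34, adjusted p = 1.43e-10), which sequesters dimers, and Dcx (log2 -2.77 ± 0.33, adjusted p = 7.36e-07), of migrating neurons, among those that fell. Dcx also fell in culture (log2 -3.94 ± 0.39, adjusted p = 2.02e-05). Map7 (log2 4.61 ± 0.66, adjusted p = 0.000246) and Map1a (log2 3.09 ± 0.49, adjusted p = 0.000486) had the greatest called rises of that list in culture.

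Of the genes of tubulin modification, not all of which act on the tail, 6 rose and 4 fell of 18 tested in tissue. In culture 1 rose and 3 fell of 17 tested, and the medians were 0.78 in tissue and 0.45 in culture. Agbl4, a deglutamylase, rose in tissue (log2 4.07 ± 0.39, adjusted p = 1.21e-07), as did Ttll11 (log2 2.74 ± 0.34, adjusted p = 9.83e-07), a polyglutamylase. Vash1, a detyrosinase, and its partner Svbp fell (log2 -1.75 ± 0.23, adjusted p = 1.66e-06 and log2 -3.77 ± 0.50, adjusted p = 2.43e-06). In culture Ttll7 (log2 1.87 ± 0.30, adjusted p = 0.000538) rose, and the acetyltransferase Atat1 (log2 -2.93 ± 0.43, adjusted p = 0.000308) and Agbl5 (log2 -2.77 ± 0.31, adjusted p = 4.18e-05) fell. Of the severing and end-binding genes, 3 rose and 2 fell of 18 tested in tissue and 1 rose and 3 fell of 16 tested in culture, with medians of 0.29 and -0.38. The end-binding pair moved apart in tissue, Mapre3, abundant in neurons, rising (log2 2.32 ± 0.27, adjusted p = 5.33e-07) and Mapre1 falling (log2 -3.40 ± 0.17, adjusted p = 1.89e-11). Fignl1 had the greatest called fall of that list in tissue (log2 -5.14 ± 0.65, adjusted p = 1.26e-06). Of other tubulins, 0 rose and 2 fell of 5 tested in tissue and 0 rose and 1 fell of 3 tested in culture, with medians of 0.19 and 0.26, Tuba1c (log2 -2.14 ± 0.40, adjusted p = 0.000109) and Tubg1 (log2 -1.10 ± 0.26, adjusted p = 0.000933) being those that fell in tissue and Tube1 (log2 -1.81 ± 0.42, adjusted p = 0.00511) in culture.

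Across the means of the 11 RNA groups, on the log2 scale of CPM plus 0.5, Tuba1a and Tubb5 correlated at 0.98, Tubb2b and Tubb5 at 0.98 and Tubb2a and Tubb6 at 0.93, whereas Tuba4a and Tubb5 stood at -0.50. Among 15561 genes, those most like Tubb2b were Alg2 (r = 0.98), Hspa5 (r = 0.98) and Tubb5 (r = 0.98), and those most like Tubb3 were Arpin (r = 0.97), Npl (r = 0.97) and Gde1 (r = 0.96). Those most like Tuba4a were B230312C02Rik (r = 0.98), Ccdc92 (r = 0.96) and Gm7361 (r = 0.96). The points share libraries and scaling, and the correlations are descriptions over 11 groups.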

How the data were processed

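RNA was measured in 28 libraries and ATAC-seq in 22, and groups came from the labels. The authors deposited RSEM expected counts and TPM values per gene for each RNA library, from trimmed reads (cutadapt 0.6.2) of a ribosomal RNA-depleted, stranded kit, aligned to mm10 with STAR 2.5.2b and quantified with RSEM 1.3.0 at default parameters. For ATAC-seq the authors deposited MACS2 2.2.7.1 peaks per library, with fold enrichment and −log10 p- and q-values, after BWA 0.7.1.7 alignment and removal of duplicates with SAMtools 1.7.2. Replicates were not pooled. Estimates split reads between near-identical genes, so single members of such pairs are less certain than their sums.

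The 10 members and the gene lists were chosen with earlier results of these data known. Expected counts were rounded, and genes with at least 5 CPM in all replicates of at least 1 group were kept. Tissue (18 libraries), culture (10) and both without TTX (25) were each fitted with TMM scaling in edgeR 4.0.16 (R 4.3.3) by the quasi-likelihood test, for 14 comparisons. A call was an unadjusted p under 0.001 with at least 2-fold change, and adjusted p-values are Benjamini-Hochberg values over all genes. The fit was tested on simulated data. Alternatives were median-of-ratios scaling, no filter, an adjusted p limit of 0.05, DESeq2 1.42.0, a replicate block, leaving out each library, the compared groups alone, another label for 1 library, and summed copies. DIV28 and TTX replicates of the same number were parallel cultures, paired per a note in the study's supplementary data, and their deviations from group means correlated at 0.578, 0.489 and 0.661. Tissue libraries are separate pools of animals, and for the cultures p-values cover only the spread between these libraries. Genes of the lists were named from those with the greatest called changes of their list, up to 2 in each direction, and not every such gene is named. Like genes were the 3 with the highest Pearson r. Promoter peaks had a summit within 1000 bp of an annotated start, with 9 of 10 members at 500 bp in all libraries and 10 at 2000 bp. Sequences came from GENCODE and RefSeq tables of GRCm38, and some items withheld for evaluation are not reported here.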

Additional observations from a re-analysis of the deposited data

Results flagged for a closer look

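The changes in culture and tissue differed for 9 members, by the test of the change from DIV0 to DIV28 minus that from E13.5 to P21 in edgeR. On the log2 scale the difference was 4.90 for Tuba1a, 4.97 for Tuba1b, 4.26 for Tuba4a, 4.85 for Tubb2a, 6.83 for Tubb2b, 4.63 for Tubb3, 4.85 for Tubb4b, 5.34 for Tubb5 and 10.42 for Tubb6, each higher in culture. Tuba4a rose in both systems, and the other 8 fell in tissue, of which Tuba1b, Tubb4b and Tubb6 rose in culture.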

How the results depend on the processing

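Depth limited the low members most. Tubb6 had at most 11 counts in a library from P21 on and Tuba4a 5 and 3 counts at DIV0, and 2 or 3 libraries a group left wide errors in culture. Of 66 called values, 737 of their 808 alternatives kept the call and the direction, 70 lost the call and 1 was reversed, Tuba4a from E13.5 to DIV0, at log2 1.57 with the library of the DIV0 title placed at DIV0. Among values not called, 70 of 896 alternatives gave a call and 48 changed sign without one. The cause of these shifts was not tested. Members called from E10.5 to E13.5 numbered 2 with only the compared groups fitted, 1 higher and 1 lower, beside 2036 higher and 1681 lower of 12243 genes. From P56 to 2 years 1 was called with median-of-ratios scaling, with no filter on low counts, with an adjusted p limit, in DESeq2 and with only the compared groups fitted. In that order, genes called higher numbered 59 of 15030, 177 of 36585, 38 of 15030, 61 of 15030 and 115 of 12255. From DIV0 to DIV7 the count was 8 with no filter, 5 with the adjusted limit, 5 in DESeq2, 6 with a replicate block, 6 with only the compared groups and 0 with the library of the DIV0 title placed at DIV0. In that order, genes called higher numbered 1887 of 30558, then 1807, 1426 and 1456 of 12890, 1531 of 12333 and 109 of 12348. From DIV7 to DIV28 the count was 3 with no filter, beside 1166 higher and 1066 lower of 30558 genes. It was 0 with that library placed at DIV0, beside 61 higher and 57 lower of 12348 genes. From DIV0 to DIV28 the count was 7 with no filter, with the adjusted limit, in DESeq2 and with the replicate block, and 0 with that library placed at DIV0. In that order, genes called higher numbered 2686 of 30558, then 2508, 1949 and 1923 of 12890, and 9 of 12348. The replicate numbers of DIV0, DIV7 and DIV28 share only a number, with correlations of deviations from -0.0083 to 0.0325, as do those of the tissue ages, with -0.14 to 0.201. With TTX the count was 1 with no filter, 1 with the replicate block and 1 with the replicate block on pairs 1 and 2, the last chosen after seeing the data, like the summing of copies. With no filter 186 of 30558 genes were called higher, and with the replicate block 127 of 10764. From E13.5 to DIV0 the count was 5 with the library of the DIV0 title placed at DIV0, beside 3353 of 15403 genes called lower.

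Leaving out single libraries, members called ranged from 3 to 6 for E10.5 to E13.5, from 0 to 2 for P56 to 2yr, from 0 to 2 for DIV0 to DIV7, from 0 to 1 for DIV7 to DIV28, from 2 to 7 for DIV0 to DIV28 and from 4 to 7 for E13.5 to DIV0. In log2 changes that turned over when a library was left out, the range was -0.13 to 1.03 for Tubb2a and -0.95 to 0.30 for Tubb4a from E10.5 to E13.5. It was -0.59 to 0.22 for Tubb4a from E13.5 to P4. It was -0.14 to 0.16 for Tubb2a from P4 to P13. It was -0.17 to 0.12 for Tuba4a from P21 to P56. It was -0.027 to 1.26 for Tubb5 from DIV0 to DIV7. It was -0.85 to 0.40 for Tuba1a, -0.31 to 0.78 for Tuba1b, -0.46 to 0.76 for Tubb2a, -0.29 to 1.13 for Tubb3 and -0.12 to 0.99 for Tubb4b from DIV7 to DIV28. It was -0.51 to 0.079 for Tubb2b and -0.46 to 0.27 for Tubb5 from DIV0 to DIV28. It was -0.0082 to 0.93 for Tuba1a, -0.023 to 0.72 for Tuba1b, -0.77 to 0.11 for Tuba4a, -0.028 to 0.68 for Tubb4a and -0.32 to 0.22 for Tubb6 from DIV28 to DIV28 TTX. It was -0.071 to 0.59 for Tubb4a from P21 to DIV28. Further turns were those of Tubb2a from E10.5 to E13.5 (-0.73 with copies summed), from P4 to P13 (-0.054 with median-of-ratios, -0.0055 with no filter, -0.052 in DESeq2, -0.046 with only the compared groups, -0.46 summed) and from DIV7 to DIV28 (-0.019 with no filter, -0.72 summed). Tuba4a turned to 0.0027 from P21 to P56 with only the compared groups and to -1.62 from DIV0 to DIV7 with the library of the DIV0 title at DIV0. Tuba1b turned to -0.30 from DIV7 to DIV28 with copies summed, and Tubb4a to -0.017 with TTX with that library at DIV0. From DIV0 to DIV28, Tubb2b was at 0.11 with the block, 0.30 with that library at DIV0 and 0.76 summed, and Tubb5 at 0.27 with the block and 0.49 with that library at DIV0. Summed with its near copy, the Tuba1a share with Tuba1b was 99.7% at E13.5 and 83.3% at P21, and the Tubb2b share with Tubb2a was 36.7% at E13.5, 17.6% at P21, 29.6% at DIV28 and 32.9% with TTX. As shares of expected counts, Tuba4a held 8.60% at DIV28, Tubb4a 39.8% at P21 and 9.14% at DIV28, and Tubb2b 2.01% at P21, 11.9% at DIV28 and 16.5% with TTX.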
